A study of Mus musculus with 8 samples.

Results

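The colony stimulating factors and their receptors were followed in the skin wounds of mice given Z1C2Z or PBS. The members were taken by symbol, under a rule that holds no measured value, and comprised 8 of the 18540 genes in the count table: the 3 ligands Csf1, Csf2 and Csf3 and the 5 receptor chains Csf1r, Csf2ra, Csf2rb, Csf2rb2 and Csf3r. Z1C2Z is a nanocomposite of zinc peroxide (ZnO2) and cerium oxide (CeO2) in the zeolitic framework ZIF-8, with the higher share of CeO2 among the composites of the study. RNA came from wound skin of 4 control samples that received PBS (numbered 1, 2, 3 and 5) and 4 treated samples (numbered 1, 2, 4 and 5), taken after 15 days of treatment. Values listed for a group follow the order of these numbers. The labels call the groups con and shiyan, and the name Z1C2Z comes from the study's own sample names, which carry the same numbers.

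The study wounded both db/db mice aged 10 weeks, which lack a working leptin receptor and become diabetic, and C57BL mice aged 6 weeks, with a pair of full-thickness dorsal wounds 10 mm wide on each mouse. The sources used here do not say which strain gave the sequenced samples or whether samples shared a mouse, so the p-values measure the spread between these samples only. The totals ran from 28856790 to 38974888 counts per sample, and values are given as CPM (counts scaled to a common library size of 1e6 by the TMM method). Skin markers were abundant in every sample, with summed CPM of 43054 to 78015 for 6 fibroblast genes and 11426 to 17647 for 5 keratinocyte genes. In bulk tissue, fewer cells of a type and less RNA per cell cannot be told apart.

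Colony stimulating factors are secreted proteins that control the survival, growth and activation of myeloid cells. Csf1 (M-CSF) sustains macrophages through the receptor tyrosine kinase Csf1r, Csf3 (G-CSF) drives the production and release of neutrophils through Csf3r, and Csf2 (GM-CSF) acts on granulocytes, macrophages and dendritic cells. The Csf2 receptor pairs the ligand-specific chain Csf2ra with the common beta chain Csf2rb, which the interleukin-3 and interleukin-5 receptors also use, and mice carry a second beta chain, Csf2rb2, that serves interleukin-3. In wounded skin the ligands can be made by keratinocytes, fibroblasts, endothelial cells and leukocytes, while the receptors are carried mostly by leukocytes.

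Expression of all 7 tested members was lower on average in the Z1C2Z samples, and 2 of them, the ligand Csf3 and the receptor chain Csf2rb, passed the test (quasi-likelihood test of edgeR, Benjamini-Hochberg adjusted over 15147 genes, adjusted p under 0.05 and a log2 fold change under -1). Of all tested genes, 189 (1.25%) were called lower by this rule and 326 (2.15%) were called higher. No member was called higher by edgeR or by DESeq2, and none had an unadjusted p under 0.05 in that direction. At an unadjusted p under 0.05, 6 of the 7 tested members were lower, and 15.2% of all tested genes were lower by that rule. Csf2 had too few counts in most samples to be tested and is described by its counts. The median log2 fold change of the tested members was -0.89, against 0.0086 for all tested genes. Of all 15147 tested genes, 7414 had a log2 fold change under 0.

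**Figure D1:**
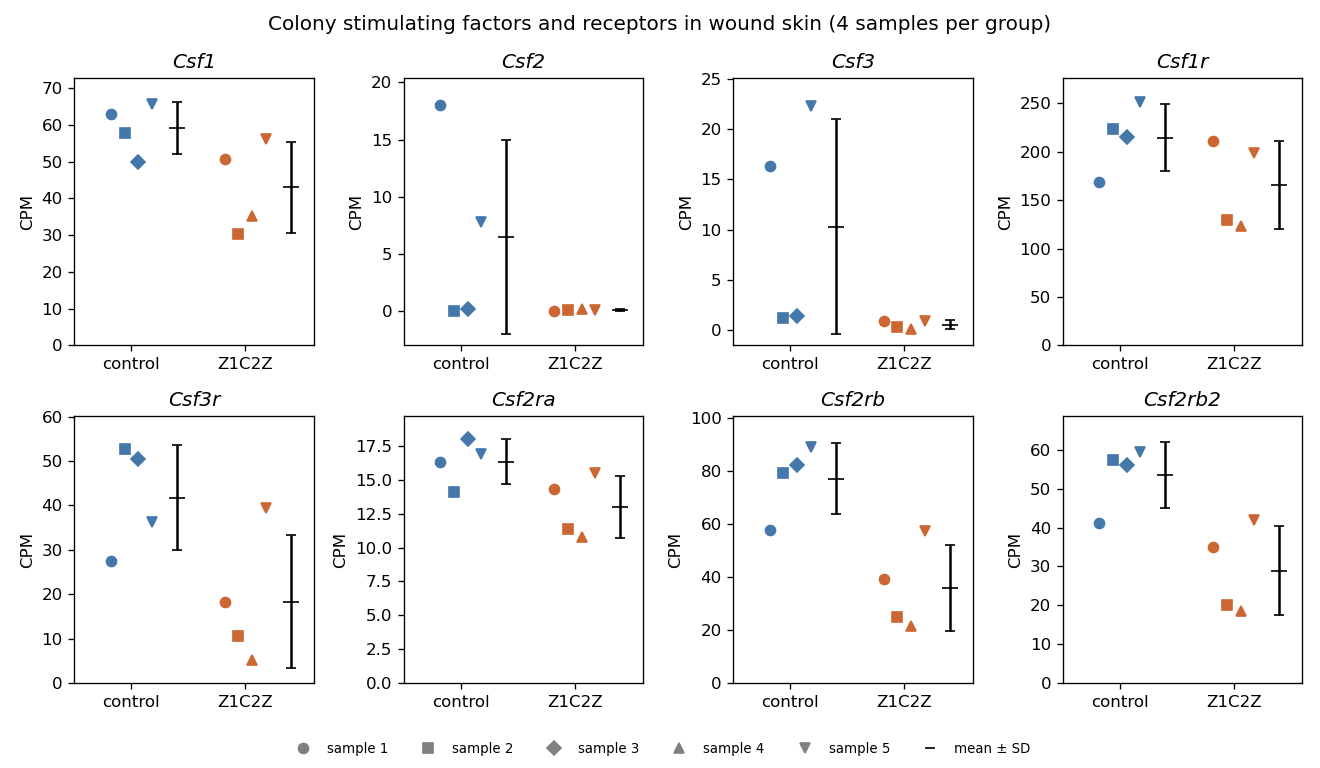
CPM of the 8 members in each sample, with control samples in blue, Z1C2Z samples in orange, the marker shape giving the sample number and bars giving the mean ± SD of 4 samples. Csf3 and Csf2rb show no overlap between the groups, and Csf2 and Csf3 are high in control-1 and control-5 alone.

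Among the ligands, Csf3, the neutrophil growth factor, had the largest fold change of the tested members. Its level was 16.3 CPM in control-1, 1.17 in control-2, 1.35 in control-3 and 22.3 in control-5. It was 0.874 CPM in Z1C2Z-1, 0.233 in Z1C2Z-2, 0.0753 in Z1C2Z-4 and 0.887 in Z1C2Z-5. Every Z1C2Z sample was under every control sample, a pattern found in 8.82% of all tested genes, but the control samples themselves spread over a 19.1-fold range. The gap between the lowest control and the highest Z1C2Z sample was small, since these held 42 and 32 counts. The group means were 10.3 ± 10.7 CPM for control and 0.517 ± 0.424 CPM for Z1C2Z (SD, n = 4 each). The log2 fold change was -4.32 (SE 1.12, edgeR adjusted p = 0.0484), with a 95% interval from -6.84 to -1.80. A two-sided exact permutation test on log2 CPM gave p = 0.0286, the smallest that 4 samples against 4 allow. Csf3 passed the low-count filter through the control samples, because Z1C2Z-2 held 9 counts and Z1C2Z-4 held 3.

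Csf2 was counted 507 times in control-1 and 276 times in control-5, but 0 times in control-2 and 7 times in control-3. The Z1C2Z samples held 1, 4, 8 and 4 counts. Thus Csf2 was abundant in the same 2 control samples in which Csf3 was high, and the other 2 control samples overlapped with the Z1C2Z samples. In CPM the level was 18.0 in control-1, 7.77 in control-5 and 0.193 in control-3. The count of 0 in control-2 allows up to 0.0832 CPM (3 counts, counting error only). A two-sided exact permutation test on log2 CPM gave p = 0.314. Without the low-count filter edgeR put the log2 fold change at -5.80 (SE 1.63, adjusted p = 0.0633), whereas DESeq2 gave -5.88 (SE 1.72, adjusted p = 0.00769), so the call for Csf2 depended on the tool.

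Csf1, the macrophage growth factor, was spread less between samples. Its level was 63.0, 57.9, 49.9 and 65.8 CPM in the control samples. It was 50.8, 30.2, 35.1 and 56.2 CPM in the Z1C2Z samples. The groups overlapped, with Z1C2Z-1 and Z1C2Z-5 lying within the control range. The log2 fold change was -0.46 (SE 0.20, edgeR adjusted p = 0.166), which did not pass the test.

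The ligands also differ in a sequence feature of their mRNA. Copies of the pentamer ATTTA in the 3′ untranslated region mark many short-lived cytokine mRNAs. The GENCODE M21 transcript Csf2-201 held 9 copies in 317 bases of this region and Csf3-201 held 6 in 669 bases, or 28.4 and 8.97 per kilobase. Only 0.0419% and 1.36% of 19080 protein-coding genes were at least as dense, with a median of 1.31 per kilobase. Csf1 held 4 copies in 2111 bases (1.89 per kilobase), Csf1r held 3, and Csf2ra, Csf2rb, Csf2rb2 and Csf3r held 0. So the 2 ligands whose counts varied most between samples were also the members densest in this pentamer, which is a description of 8 genes only. The densest stretches of 30 bases are shown because they carry this feature, 5′ to 3′ on the mRNA strand with each ATTTA in capitals, from chr11:54247329-54247358 (minus strand, GRCm38) for Csf2 and chr11:98702984-98703013 (plus strand, GRCm38) for Csf3.
Csf2: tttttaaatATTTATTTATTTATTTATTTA
Csf3: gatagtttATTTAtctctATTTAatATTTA
The Csf2 stretch held 5 overlapping copies, and the Csf3 stretch held 3.

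Among the factors that act on such mRNAs, 0 of 7 decay and stability genes passed edgeR's adjusted p of 0.05, with a median log2 fold change of -0.047. Zfp36, which destabilizes ATTTA-bearing mRNAs and is named here after its values were seen, had -1.01 (adjusted p = 0.0701). Every Z1C2Z sample was under every control sample for Zfp36, as for 8.82% of all tested genes. However, Z1C2Z-2 (50.83 CPM) nearly reached control-2 (51.45 CPM). Of 10 tested genes that induce the ligands (inflammatory cytokines, their receptors and NF-kB factors), 5 were lower at an adjusted p under 0.05 and none was higher, against 3.85% of all tested genes lower by that rule. All 10 had a log2 fold change under 0 (median -0.70), as did 7414 of all 15147 tested genes. The list was chosen with earlier results of these data known, so these shares are not an independent test. Il1r1, the signalling receptor of interleukin-1, fell from 209 ± 43.9 to 86.5 ± 23.7 CPM (SD, n = 4; log2 fold change -1.28, adjusted p = 0.0299). Nfkbiz, an inducible NF-kB cofactor, had a log2 fold change of -1.05 (adjusted p = 0.0348). Il17ra, a receptor chain for interleukin-17, had -0.71 (adjusted p = 0.0395), and the NF-kB subunit Nfkb1 had -0.57 (adjusted p = 0.0470). The filter on low counts removed Il17a and Il17f.

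The receptor chains had lower means too, but by less than Csf3 and with less spread between the control samples. Csf2rb, the common beta chain, was 57.8 CPM in control-1, 79.3 in control-2, 82.0 in control-3 and 88.9 in control-5. It was 39.1 CPM in Z1C2Z-1, 25.1 in Z1C2Z-2, 21.6 in Z1C2Z-4 and 57.2 in Z1C2Z-5. Every Z1C2Z sample was under every control sample, although Z1C2Z-5 nearly reached control-1. The group means were 77.0 ± 13.4 CPM for control and 35.7 ± 16.2 CPM for Z1C2Z (SD, n = 4 each). The log2 fold change was -1.11 (SE 0.29, edgeR adjusted p = 0.0497), a fall of 2.16-fold with a 95% interval from 1.37 to 3.40. The exact two-sided permutation test gave p = 0.0286, the smallest possible here.

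Csf2rb2, the mouse beta chain of the interleukin-3 receptor, followed Csf2rb closely. It was 41.1, 57.3, 56.1 and 59.5 CPM in the control samples, and 35.0, 20.2, 18.6 and 41.9 CPM in the Z1C2Z samples. The groups overlapped by a small margin, between control-1 and Z1C2Z-5. The log2 fold change was -0.89 (SE 0.26, edgeR adjusted p = 0.0675), which did not pass.

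Both beta chain genes lie on chromosome 15 and are close copies, so their counts are uncertain where the counting could split shared reads. The coding sequences of Csf2rb-206 (2691 bases) and Csf2rb2-201 (2637 bases) were identical at 95.2% of 2631 aligned bases. Of all windows of 100 bases of the Csf2rb transcript, 6.96% occurred unchanged in a Csf2rb2 transcript, and at 150 bases the share was 3.47%. At 50 bases it was 18.4%. The ungapped coding stretch of 120 bases with the most differences (22) is shown with differing bases in capitals, since reads over it can separate the genes. Gapped and untranslated parts were not searched. It spans 2 exons, within chr15:78338898-78340471 (plus strand, GRCm38) for Csf2rb and chr15:78292838-78294433 (minus strand, GRCm38) for Csf2rb2.
Csf2rb: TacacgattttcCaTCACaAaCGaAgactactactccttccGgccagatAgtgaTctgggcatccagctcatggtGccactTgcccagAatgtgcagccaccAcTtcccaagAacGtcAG
Csf2rb2: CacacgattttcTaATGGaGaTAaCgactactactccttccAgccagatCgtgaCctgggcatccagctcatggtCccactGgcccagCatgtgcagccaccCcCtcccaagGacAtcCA
With the counts of both genes summed, the log2 fold change was -1.01 (edgeR adjusted p = 0.0553), so the call for the pair was lost. The share of the pair's counts on Csf2rb2 was 40.1% to 42.0% in the control samples and 42.3% to 47.3% in the Z1C2Z samples, a description without a test.

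Csf3r, the G-CSF receptor of neutrophils, varied most among the receptors. It was 27.6 CPM in control-1, 52.7 in control-2, 50.3 in control-3 and 36.4 in control-5. It was 18.2 CPM in Z1C2Z-1, 10.5 in Z1C2Z-2, 5.22 in Z1C2Z-4 and 39.4 in Z1C2Z-5. Among the control samples the receptor was lowest in control-1 and control-5, where its ligand Csf3 was highest. Z1C2Z-5 lay above 2 control samples, so the groups overlapped. The log2 fold change was -1.19 (SE 0.52, edgeR adjusted p = 0.176), with a 95% interval from -2.37 to -0.0062, and did not pass the test. Without Z1C2Z-5 it was -1.89 with an adjusted p of 0.0261.

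Csf1r, the most abundant member, was 168, 223, 216 and 251 CPM in the control samples, and 211, 129, 124 and 198 CPM in the Z1C2Z samples. The groups overlapped (log2 fold change -0.37, SE 0.20, edgeR adjusted p = 0.256). Csf2ra, the ligand-binding chain of the GM-CSF receptor, ranged from 14.1 to 18.0 CPM in the control samples and from 10.8 to 15.5 CPM in the Z1C2Z samples (log2 fold change -0.33, SE 0.14, edgeR adjusted p = 0.172). Neither passed the test, and the 95% intervals ran from -0.83 to 0.077 for Csf1r and from -0.66 to -0.0054 for Csf2ra.

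**Figure D2:**
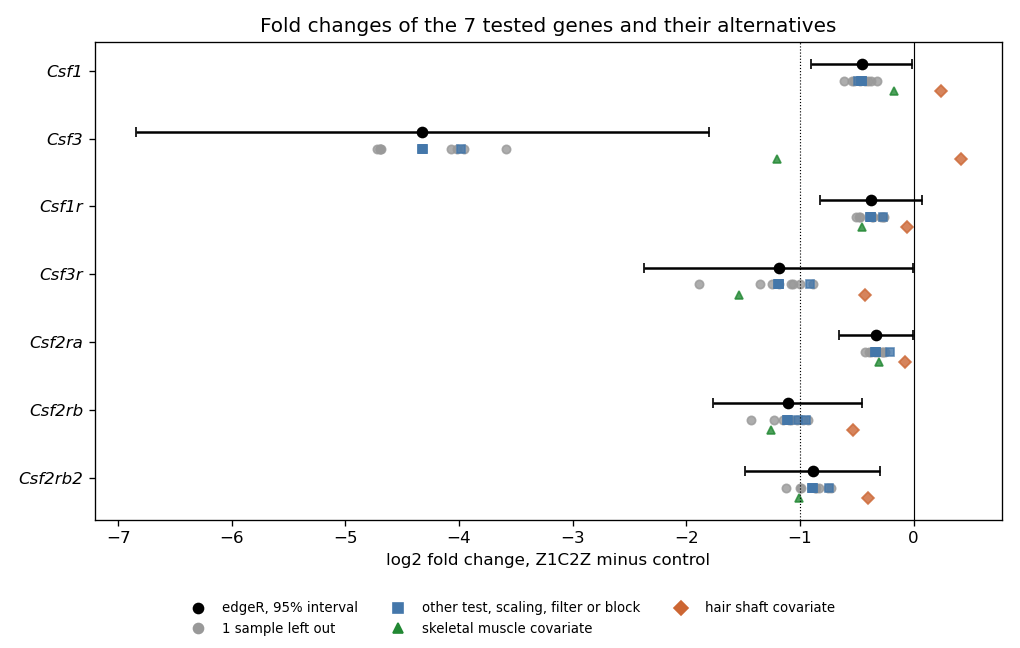
Log2 fold change (Z1C2Z minus control) of the 7 tested members, with the 95% interval of edgeR in black and alternative fits in colour (the summed beta chain pair is drawn in the row of Csf2rb), and with a dotted line at -1. All members lie under 0 except Csf1 and Csf3 with the hair shaft covariate, at 0.24 and 0.41.

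Both calls depended on which libraries entered the fit. When each sample was left out in turn, the log2 fold change of Csf3 stayed between -4.72 and -3.58, and its edgeR adjusted p was under 0.05 only without control-3 (0.0361) and reached 0.140 without Z1C2Z-2. Csf2rb stayed between -1.43 and -0.93, with an adjusted p under 0.05 without control-1 (0.0456) or Z1C2Z-5 (0.0139) and up to 0.140 without Z1C2Z-2. When control-5 or any of Z1C2Z-1, Z1C2Z-2 and Z1C2Z-4 was left out, edgeR called no gene of the whole table lower, with 3100 to 4208 genes at an unadjusted p under 0.05.

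Other tissue markers moved with the groups and with the ligands. The summed CPM of 6 skeletal muscle genes was 4745, 2824, 2391 and 3415 in the control samples, and 2010 to 2307 in the Z1C2Z samples. Thus control-1 and control-5, the samples with high Csf2 and Csf3, also held the most muscle RNA. The summed CPM of 8 hair shaft keratin genes was lowest in the same samples, being 57.5, 145, 325 and 65.0 across the control samples. In the Z1C2Z samples it was 1133, 3196, 3055 and 359. All 8 hair shaft genes were higher in the Z1C2Z group at an adjusted p under 0.05, with log2 fold changes of 4.78 for Krt81, 4.77 for Krt86, 4.76 for Krt83 and 4.46 for Krt33b. Of the 6 muscle genes, Acta1 was lower (-0.86, adjusted p = 0.0303), and of the 6 fibroblast genes, Lum (-0.67, adjusted p = 0.0299) and Dcn (-0.45, adjusted p = 0.0320) were lower.

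With the muscle score as a covariate, the log2 fold change of Csf3 was -1.21 (edgeR adjusted p = 0.650) and that of Csf2rb was -1.25 (adjusted p = 0.225). With the hair shaft score they were 0.41 and -0.53 (adjusted p = 0.999 for both). No gene of the table was called under either covariate in edgeR, and 2637 and 701 genes had an unadjusted p under 0.05, respectively, of which 2 and 0 were members. The part of tissue makeup in the fall of Csf3 and Csf2rb was not tested beyond these fits, and where a score follows the groups tissue makeup and treatment cannot be told apart.

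**Figure D3:**
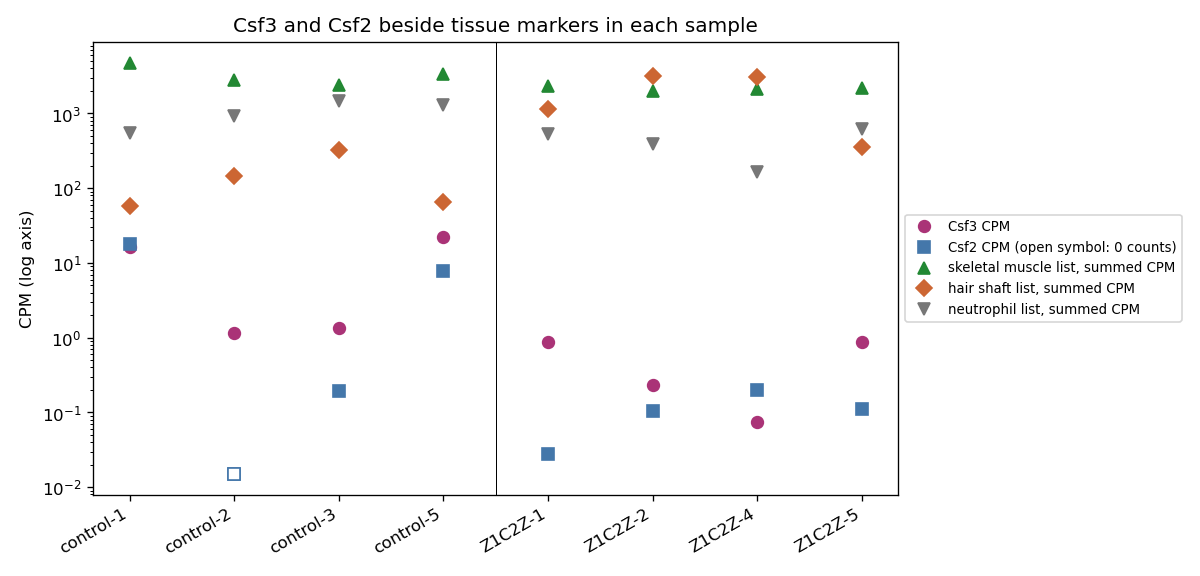
Csf3 and Csf2 CPM beside the summed CPM of the skeletal muscle, hair shaft and neutrophil marker lists in each sample, on a log axis. S100a8 and S100a9 make up most of the neutrophil sum. Control-1 and control-5 hold the most Csf3, Csf2 and muscle RNA and the least hair shaft RNA.

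The receptors were then set against markers of the cells that carry them. Of 8 tested neutrophil markers, 7 had a log2 fold change under 0 (median -1.10), as did 7414 of all 15147 tested genes. None passed the adjusted p of 0.05 in edgeR. The summed CPM of all 11 listed neutrophil genes was 551 to 1463 in the control samples and 166 to 624 in the Z1C2Z samples. S100a8 and S100a9 made up most of this sum, with 194 and 317 CPM in control-1, where the sum was 551. Ly6g, Mpo and Elane were near 0 in both groups. Camp, Ngp and Ltf were tested but held 0, 0 and 1 counts in control-1. Relative to the 8 tested markers, the log2 level of Csf3r was 3.03, 2.57, 1.61 and 2.68 in the control samples, and 1.98, 0.83, 0.53 and 2.88 in the Z1C2Z samples. The difference of -0.92 did not exceed the spread (exact two-sided permutation test, p = 0.229, adjusted over 3 ratios p = 0.343). Without Camp, Ngp and Ltf, a choice made after the values were seen, the difference was -0.25 (exact permutation p = 0.257). Without S100a8 and S100a9 it was larger, at -1.18 (exact permutation p = 0.2). The size of the difference thus depended on the markers used, including the low-count ones, and it did not exceed the spread with either choice.

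Of 10 macrophage markers, all had a log2 fold change under 0 (median -0.40), as did 7414 of all 15147 tested genes, and none passed in edgeR. Csf1r relative to them was 0.55 ± 0.22 in the control group and 0.56 ± 0.12 in the Z1C2Z group (SD, n = 4, log2 scale). The difference was 0.011 (exact two-sided permutation test, p = 0.971, adjusted p = 0.971). In mean log2 CPM the Z1C2Z group lay below the control group by a difference of -0.40 for Csf1r and -0.41 for the macrophage markers.

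Csf2rb was also set against Ptprc (CD45), which marks all leukocytes and whose own log2 fold change was -0.43 (edgeR adjusted p = 0.210). The log2 ratio of Csf2rb to Ptprc was -1.17, -0.94, -1.30 and -0.57 in the control samples, and -1.71, -2.03, -1.90 and -1.36 in the Z1C2Z samples. The groups did not overlap, and the difference of -0.76 gave p = 0.0286 in the exact two-sided permutation test, the smallest possible, and 0.0857 after adjustment over the 3 ratios. Median log2 fold changes of the leukocyte marker lists were -1.10 (neutrophil), -0.40 (macrophage), -0.24 (mast cell), 0.014 (dendritic and Langerhans), 0.31 (T cell) and 0.55 (eosinophil). The ratio to Ptprc cannot tell another mix of leukocytes from less Csf2rb per cell, and the mix was not tested.

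**Figure D4:**
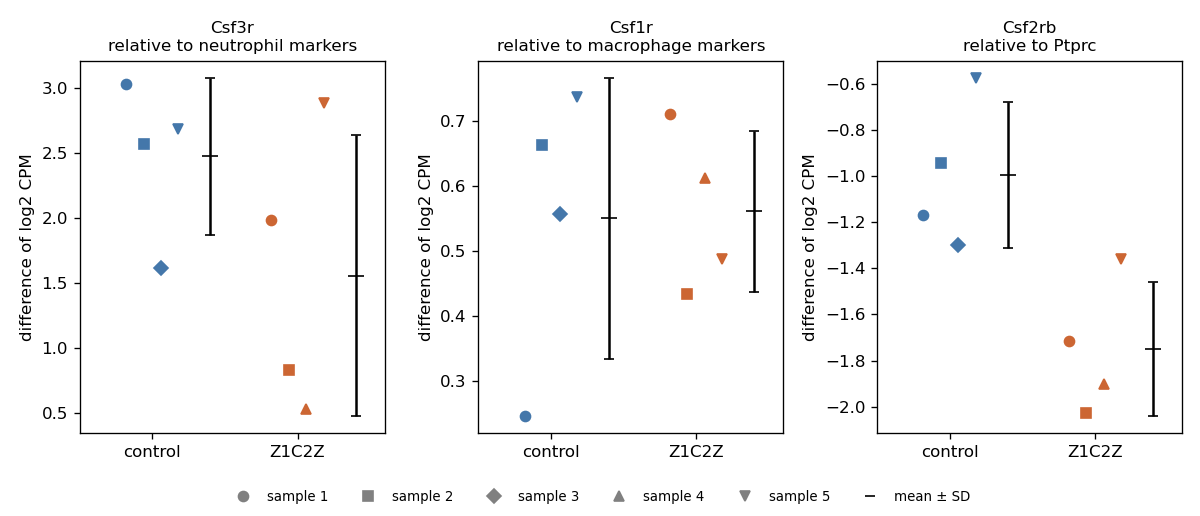
Log2 CPM of Csf3r, Csf1r and Csf2rb minus the mean log2 CPM of neutrophil markers, macrophage markers and Ptprc, in each sample with the mean ± SD of 4 samples. The groups overlap for Csf3r and Csf1r and are apart for Csf2rb.

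Levels were compared between members as CPM per kilobase of exon, with exon lengths from GENCODE M21. In the control group Csf1r led at 37.2 ± 5.97 and stood above the others in every sample. Csf3r (11.6 ± 3.29), Csf2rb2 (11.3 ± 1.77), Csf1 (11.2 ± 1.32) and Csf2rb (10.6 ± 1.84) followed and, with the joined lengths, did not differ beyond their spread. Csf2 (8.12 ± 10.6) and Csf3 (7.28 ± 7.58) exceeded Csf3r, Csf2rb and Csf2rb2 in control-1 and were far below them in control-2. Csf2ra was at 5.69 ± 0.574. In the Z1C2Z group the order with the joined lengths was Csf1r (28.7 ± 7.86), Csf1 (8.16 ± 2.35), Csf2rb2 (6.10 ± 2.40), Csf3r (5.08 ± 4.16), Csf2rb (4.91 ± 2.22) and Csf2ra (4.53 ± 0.797, all SD, n = 4). Of these, only Csf1r was apart from its neighbour. Csf3 (0.366 ± 0.300) and Csf2 (0.139 ± 0.0884) were below every other member in each sample and overlapped with each other.

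**Figure D5:**
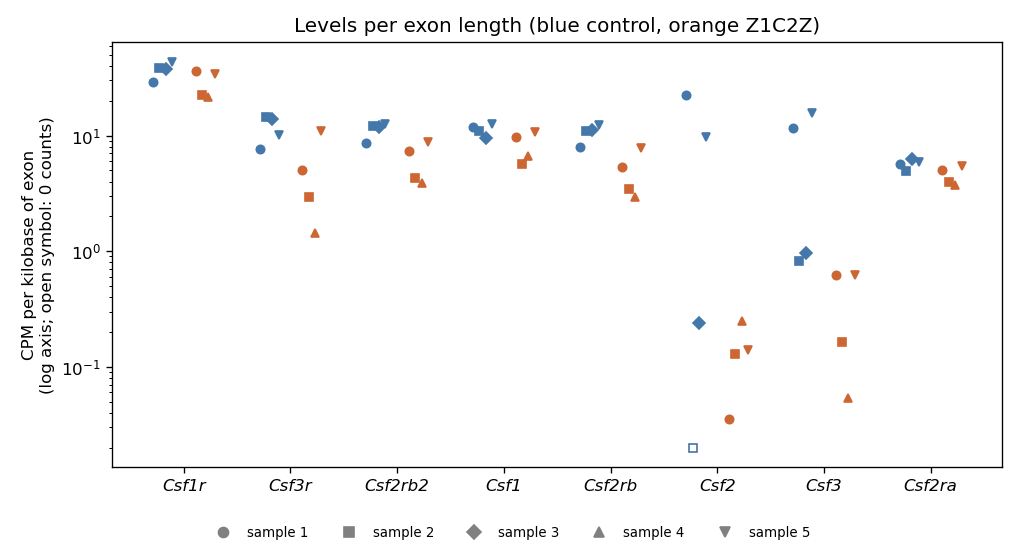
CPM per kilobase of joined exon length for each member and sample on a log axis, with members ordered by their mean in the control group (blue, Z1C2Z in orange, open symbol for 0 counts). Csf1r is highest in both groups, and Csf3 and Csf2 are lowest in the Z1C2Z samples.

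Promoter windows from RefSeq (GRCm38.p6, 250 bases before to 50 after the start) were held for 5 of the 8 members. The letters GAGGAA, a core bound by the myeloid factor PU.1, were searched on both strands and occurred 2 times for Csf2ra, 2 times for Csf2rb2 and 1 time for Csf3r, and not for Csf1 or Csf2. They occur in 28.3% of all 32851 windows. The NF-kB letters, GGGA and TTCC parted by any 2 bases, occurred 1 time each for Csf1 and Csf3r (1.47% of all windows). The STAT letters TTCNNNGAA occurred 1 time for Csf2rb2 (8.30%) and the C/EBP letters TTGCNNAA 1 time for Csf2 (10.8%). The AP-1 letters TGANTCA (7.81%) and the cytokine-1 element core GAGATTCC (0.904%) occurred in none of the 5 windows. Csf3r, Csf2rb2 and Csf2ra all had lower mean levels in the Z1C2Z group, but none of them passed the test. The windows of Csf3r (chr4:126024409-126024708, plus strand) and Csf2rb2 (chr15:78305672-78305971, minus strand) are shown as examples, with GAGGAA or its reverse complement in capitals.
Csf3r: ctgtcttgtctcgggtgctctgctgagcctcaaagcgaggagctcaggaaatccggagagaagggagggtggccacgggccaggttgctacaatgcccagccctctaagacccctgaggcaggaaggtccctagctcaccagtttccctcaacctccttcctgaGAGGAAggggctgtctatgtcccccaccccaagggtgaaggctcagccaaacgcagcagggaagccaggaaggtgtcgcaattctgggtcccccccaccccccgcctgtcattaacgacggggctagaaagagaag
Csf2rb2: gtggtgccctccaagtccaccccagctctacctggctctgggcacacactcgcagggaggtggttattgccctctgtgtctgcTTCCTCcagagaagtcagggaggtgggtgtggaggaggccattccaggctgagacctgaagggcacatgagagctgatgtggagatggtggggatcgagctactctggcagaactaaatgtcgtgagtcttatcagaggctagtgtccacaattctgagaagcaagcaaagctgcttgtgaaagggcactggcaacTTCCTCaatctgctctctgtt
Spi1, which encodes PU.1, differed by -0.44 on the log2 scale (edgeR adjusted p = 0.224) and Cebpa, a granulocyte lineage factor, had 0.17 (adjusted p = 0.372). Of 6 tested myeloid transcription factors, Runx1 alone was lower at an adjusted p under 0.05 (-0.79, edgeR adjusted p = 0.0356), against 3.85% of all tested genes.

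Downstream of the receptors, 2 of 15 kinases, adaptors and STAT factors were lower at an adjusted p under 0.05 and none was higher. By that rule 3.85% of all tested genes were lower. Jak2, the kinase bound to the common beta chain, fell from 182 ± 31.8 to 95.4 ± 23.0 CPM (SD, n = 4; log2 fold change -0.93, edgeR adjusted p = 0.0303). Stat3, which Csf3r activates, fell from 277 ± 36.0 to 162 ± 36.0 CPM (log2 fold change -0.77, adjusted p = 0.0337). Of 4 feedback inhibitors, 2 were lower, each with an adjusted p of 0.0299. Socs3, which restrains Csf3r signalling, had a log2 fold change of -2.11, and Socs2 had -0.62. Socs3 was 139, 64.4, 77.9 and 186 CPM in the control samples, and 18.8 to 39.4 CPM in the Z1C2Z samples. As with Csf3 and Csf2, control-1 and control-5 were highest. When each sample was left out in turn, edgeR's adjusted p stayed under 0.05 in 3 of 8 fits for Jak2 and Stat3 and in 4 of 8 for Socs3 and Socs2.

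Of 7 tested ligands and receptors related to the members, none was lower and 1 was higher at an adjusted p under 0.05, with a median log2 fold change of 0.14. Il5ra, the interleukin-5 receptor chain that pairs with Csf2rb, rose from 0.367 ± 0.135 to 0.886 ± 0.0464 CPM (SD, n = 4; log2 fold change 1.25, edgeR adjusted p = 0.0449), from 7 to 18 counts in the control samples to 31 to 38 counts in the Z1C2Z samples. It passed the low-count filter through the Z1C2Z samples, and edgeR's adjusted p was 0.0554 without that filter and 0.0578 to 0.127 when any 1 sample was left out. Il3ra, the interleukin-3 receptor chain, had a log2 fold change of -0.71 (adjusted p = 0.0965), and Il34, the second ligand of Csf1r, had 0.17 (adjusted p = 0.541). Il5 was removed by the filter on low counts. Over the 49 tested genes of the 6 pathway lists, 10 were lower and 1 was higher at an adjusted p under 0.05, with a median log2 fold change of -0.39. Of all 15147 tested genes, 583 were lower and 648 were higher by that rule. The pathway lists were chosen with earlier results of these data known, so their difference from all genes is not an independent test.

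The genes whose log2 CPM was most like each member were listed over the 8 samples, which share 2 groups and their libraries. For Csf3 these were Ptgs2, the inducible cyclooxygenase (Pearson r = 0.995), Tnip2 (0.994) and Ccnl1 (0.991). For Csf2rb they were Ifitm1 (0.996), Dnajc10 (0.996) and Laptm5 (0.995), and for Csf2rb2 they were Sec24d (0.996), Laptm5 (0.993) and Arcn1 (0.993). Laptm5, a lysosomal protein of leukocytes, stood in both lists. Csf2rb and Csf2rb2 are close copies that followed each other closely, so this is not a separate result. For Csf3r the genes most like it were Pcdhga7 (0.993), Xrn2 (0.988) and Apbb1ip (0.986). For Csf2ra they included Gpr84 (0.968) and Plac8 (0.967). For Csf1 they were Dnajc5 (0.994), Sec63 (0.990) and Dnajc3 (0.989), and for Csf1r they were Adamtsl1 (0.988), Ganab (0.984) and Creb3l2 (0.983).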

How the data were processed

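RNA was sequenced from wound skin of 4 control and 4 Z1C2Z samples. The authors deposited a table of gene counts that had not been normalized. The aligner, counting program, genome build, annotation and strand setting are not given in the sources used here, so reads shared by near-identical genes cannot be reassigned. Labels name rRNA removal and dUTP second strand synthesis, with Trizol where the methods name a column kit. The table held 0 unused columns of per-sample values. Samples were grouped by title.

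Counts were analysed with R 4.3.3 and edgeR 4.0.16 (filterByExpr, 15147 genes, TMM, quasi-likelihood test, Benjamini-Hochberg adjustment, no covariates). Standard errors came from the F statistic. Log2 CPM used a prior count of 2. A gene was called when its adjusted p was under 0.05 and its log2 fold change was beyond 1 in either direction. Ratios to markers were tested by exact permutation over 70 arrangements. On simulated counts of this comparison with 15147 genes, 182 of 200 genes given a true log2 change of 2 were called, as were 6 unchanged genes. Alternatives were DESeq2 1.42.0, RLE size factors, other low-count filters, the sample number as a block, muscle or hair shaft covariates, summed beta chains and each sample left out.

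The members, lists and tests were chosen with earlier results of these data known. The text names all members, up to 4 genes per list with an adjusted p under 0.05, Il34, Il3ra, Il5ra, Ptprc, Spi1, Cebpa and the 3 genes most like each member, of which 1 is not reported here. Sequences came from GENCODE M21 and RefSeq, and coding sequences were aligned with Biopython 1.88. The pentamer search and the comparison of the beta chain sequences were added after the values were seen. The remaining cell lists (dendritic, eosinophil, mast cell, T cell, endothelial and adipocyte) held no gene at an adjusted p under 0.05, and neither did the keratinocyte list.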

Additional observations from a re-analysis of the deposited data

Results flagged for a closer look

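Dixon's test was applied to 66 groups of 4 values of log2 CPM or of ratios, and chance alone would flag about 5% of them. It flagged 3 values. Csf2rb2 was 5.362 log2 CPM in control-1, where the other control samples lay between 5.81 and 5.90, and control-1 is the control sample that overlapped with the Z1C2Z group for this gene. Without control-1 the edgeR adjusted p of Csf2rb2 was 0.0547. Dcn, a fibroblast gene, was 11.39 log2 CPM in Z1C2Z-5, where the other Z1C2Z samples lay between 11.27 and 11.28. Cebpa was 6.749 log2 CPM in control-2, where the other control samples lay between 7.00 and 7.05.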

How the results depend on the processing

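The number of members called lower was 2 in edgeR and DESeq2 called 3, adding Csf2. It was 1 with RLE size factors (Csf3, with Csf2rb at an adjusted p of 0.0501), 1 with the beta chains summed (Csf3), 0 with at least 10 counts in every sample (which removes Csf3 and leaves Csf2rb at 0.0502), and 0 with the muscle score or the hair shaft score as a covariate. Leaving out 1 sample gave 0 to 3 members, 0 to 316 genes of the table called lower and 0 to 463 called higher. In the whole table, 345 lower and 490 higher genes were called by DESeq2, and 0 and 0 with either covariate, where the cause was not tested. With the hair shaft covariate the direction turned for Csf1 (0.24), Csf3 (0.41), Krt81 (-0.0087), Krt86 (-0.067), Krt83 (-0.12) and Krt33b (-0.20), the keratins being part of that score. The difference of Csf1r to macrophage markers was between -0.091 and 0.072 when 1 sample was left out, and turned negative without control-1 (-0.091), Z1C2Z-1 (-0.039) or Z1C2Z-4 (-0.0066). The difference of Csf2rb to Ptprc was between -0.89 and -0.62 when 1 sample was left out, each with p = 0.0571, the smallest exact permutation p that 3 samples against 4 allow. Over the members and all alternatives, 85 log2 fold changes kept their direction and their side of an adjusted p of 0.05. Only 6 of these were of Csf3 and 4 of Csf2rb, and the others belonged to members that had not passed. In the same direction 20 rose above that p, 8 of them of Csf3 and 12 of Csf2rb. Another 3 fell below it (Csf2rb2 and Csf3r without Z1C2Z-5, and Csf2rb2 in DESeq2 at -0.90), and 2 turned.

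When sample numbers were used as a block, 1 member was called lower (Csf3, -3.98, edgeR adjusted p = 0.0061), Csf2rb was -0.95 (adjusted p = 0.0932), and 184 genes were called lower and 271 higher. Control-3 and Z1C2Z-4 have no partner of the same number, so they add nothing to the group difference in this fit. Its values rest on the numbers 1, 2 and 5 and are not those of a fit to all samples. Of the other genes named, Il5ra (adjusted p = 0.192), Stat3 (0.0711), Socs2 (0.0799), Runx1 (0.0874), Nfkb1 (0.0825), Lum (0.179) and Dcn (0.284) also rose above an adjusted p of 0.05 in edgeR, and Il34 turned to -0.032. The numbers 1, 2 and 5 occur in both groups, and the deviations of same-numbered samples correlated at -0.10, -0.062 and 0.32 across genes. These values were not compared with those of differently numbered samples, so a pairing by number was not tested. The sources do not say whether samples shared a mouse. At this depth Csf2 in 6 samples and Csf3 in Z1C2Z-2 and Z1C2Z-4 rest on fewer than 10 counts each.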
